A study of Mus musculus with 12 samples.

Results

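Early reprogramming was examined as SKO against no SKO at day 4, on 6 of the 12 arrays of the study. The 6 were taken by their titles and their label of 4 days. The 3 with SKO carried a control virus, microRNA cluster B or microRNA cluster C, and each was paired with the array without SKO that carried the same virus. The letters S, K and O are read here as Sox2, Klf4 and Oct4 (encoded by Pou5f1), although no label writes them in full and the labels only tie SKO to the iPS process. All cells were mouse embryonic fibroblasts from OG2 cross 129/sv, OG2 being a mouse line that carries a green fluorescent reporter driven by Pou5f1 regulatory sequence. The microRNA clusters were delivered by retrovirus. Cells were infected in a pair of rounds and kept in mouse embryonic stem cell medium, with days counted from the first infection. RNA was taken after trypsin and removal of feeder cells. It was labelled with biotin and hybridised to Affymetrix whole-transcript arrays. All values below are log2 expression values, and differences are SKO minus no SKO on that scale.

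A few transcription factors are enough to turn a fibroblast into an induced pluripotent stem cell. In mouse fibroblasts the first days of that process are known for a loss of the fibroblast program, faster division and a gain of epithelial features, and most genes of the pluripotent state come on later. Oct4 and Sox2 bind many enhancers together, and Klf4 is a zinc finger factor that also acts in epidermis.

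Each combination of SKO and virus had 1 array, so the arrays of an arm were not repeats of 1 condition. A p-value here sets the SKO difference against its variation across the 3 viruses and not across repeats. In limma that spread, and with it each SE, is moderated toward the spread common to all genes. Nothing in the labels says that arrays came from separate cultures. The arm without SKO is also called Group2 in the labels, and differences between the groups other than SKO, such as the number of viruses the cells took up, cannot be told apart from SKO. A description shared by all 12 samples names day 3 cells of another kind, at odds with the titles and time labels, which were followed. The number of arrays limits the precision. Arrays of the same arm differed from each other by a mean of 0.205 to 0.236 per probe set with SKO and of 0.196 to 0.242 without SKO. Arrays of different arms differed by 0.288 to 0.382. The lower quartile of an array was 3.48 to 3.66. A difference from a value near or below them is best read as a lower bound.

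Fibroblast genes were abundant in both arms, as the cell label requires. Vim, the mesenchymal intermediate filament gene, was at 11.94, 11.79 and 11.93 with SKO and blank virus, cluster B and cluster C, against 11.95, 11.67 and 11.75 without SKO in the same order of viruses, which is kept throughout. Values of the arms overlapped. Some genes that define other cell types were low in both arms, and others, such as Stmn2 and Tek, were not and are described with their lists. Across the 6 arrays the endothelial Pecam1 lay at 3.87 to 4.28, the leukocyte Ptprc at 3.56 to 4.14 and the keratinocyte Krt5 at 4.10 to 4.41.

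In the arm with SKO, 1275 of 19938 genes were higher, which is 6.39%, and 1117 were lower, which is 5.60%. A gene counted as changed when its limma adjusted p was under 0.05 and its difference had the same sign in all 3 pairs. Every one of the 2392 genes under that p met the sign rule. By the sign rule alone, 45.2% of genes would count (4093 higher and 4916 lower), and 4945 genes had an unadjusted p under 0.05. Among changed genes, 444 higher and 299 lower ones differed by at least 1 log2 unit, and 91 and 26 by at least 2. The median difference was 0.82 for the genes that rose and -0.78 for those that fell, beside -0.04 over all genes. The large changes were therefore mostly rises. With 1 pair left out, the counts were 840 higher and 668 lower without the blank virus pair, 996 and 972 without the cluster B pair, and 786 and 590 without the cluster C pair. List counts of 3 or fewer given below moved by at most 3 genes when a pair was left out. All list counts are to be read beside the 6.39% of genes that rose and the 5.60% that fell. Over all 19938 genes, 8815 differences lay above 0 and 11123 below.

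**Figure D1:**
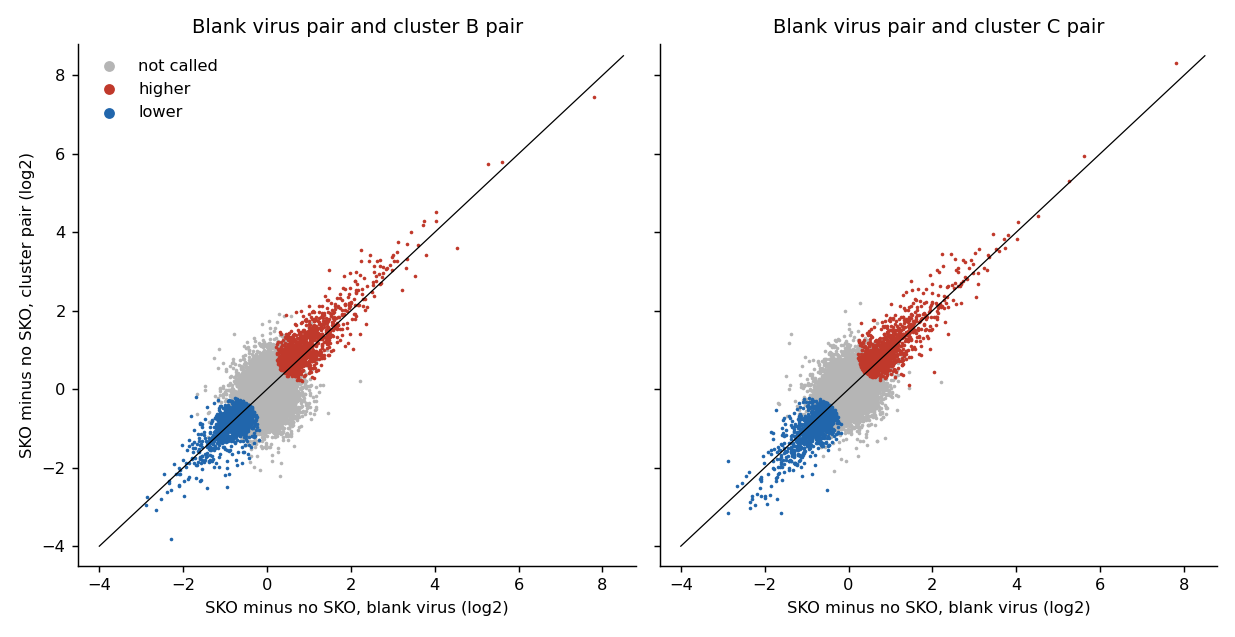
SKO minus no SKO in the blank virus pair (x axis, log2) against the cluster B pair (left) and the cluster C pair (right) for 19938 genes. Red points are the 1275 higher genes, blue the 1117 lower genes and grey the rest, and the line marks equal differences; the largest changes lie close to it.

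The 3 pairs gave much the same picture, with no arrays in common. Across genes, differences of the blank virus pair correlated with those of the cluster B pair at 0.64 and with those of the cluster C pair at 0.70, and the cluster pairs with each other at 0.62 (Pearson's r over 19938 genes, as a description). The range of the 3 differences had a median of 0.43 over all genes and 0.36 over changed genes. A call favours pairs that agree, so the narrower range of changed genes is no separate evidence of agreement. The widest range of a changed gene was 2.06. Values of the arms overlapped for 12 of the higher and 12 of the lower genes, which the call also favours. Over all genes, the arms did not overlap for 6721 of 19938.

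The delivered genes came first as a check of the arms. Pou5f1, the gene of Oct4, was at 11.62, 12 and 11.93 with SKO, against 3.82, 4.56 and 3.62 without SKO. Its values without SKO sat near the lower quartile. The difference of 7.85 ± 0.18 (moderated SE of 3 pairs, limma adjusted p = 2.98e-06), the largest of all genes, is therefore best read as a lower bound. Klf4 was at 8.70, 8.67 and 8.67 with SKO, against 7.16, 7.14 and 6.92 without SKO, a difference of 1.61 ± 0.13 (adjusted p = 0.000384). Its 3 values with SKO were nearly equal. Sox2 was at 5.47, 5.43 and 5.34 with SKO, against 4.78, 4.64 and 4.55 without SKO, a small difference of 0.76 ± 0.12 (adjusted p = 0.00759) that was not called when all 12 arrays shared the spread (adjusted p = 0.116). Whether the Sox2 probe set reads the delivered transcript is not known here. Myc, a growth-promoting factor that SKO does not include, was at 8.26, 8.37 and 8.28 with SKO, against 6.62, 6.81 and 6.93 without SKO, and rose by 1.51 ± 0.13 (adjusted p = 0.000543).

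**Figure D2:**
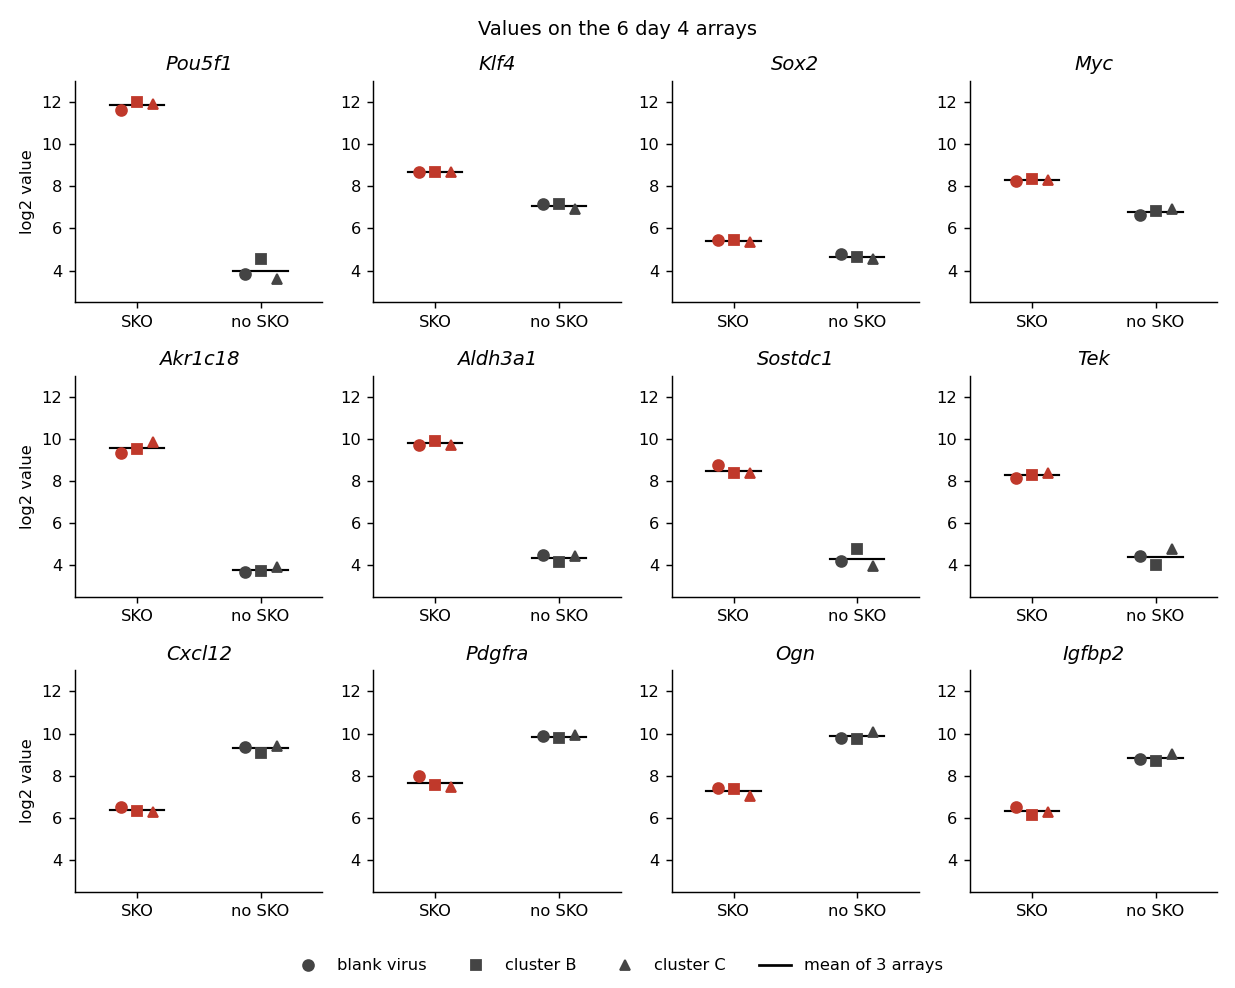
Log2 values (y axis, the same range in all panels) of the delivered factors, Myc and 8 further genes on the 6 day 4 arrays, SKO at the left of each panel and no SKO at the right. Symbols mark the virus and bars the mean of 3 arrays. In each of the 12 panels the arms do not overlap, as was so for 6721 of all 19938 genes.

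Apart from Pou5f1, the largest rises were in genes outside the list of pluripotency genes described below. Akr1c18, an enzyme that inactivates progesterone, was at 9.31, 9.51 and 9.84 with SKO, against 3.69, 3.72 and 3.90 without SKO. Aldh3a1, an aldehyde dehydrogenase abundant in cornea, was at 9.73, 9.90 and 9.73 with SKO, against 4.47, 4.15 and 4.42 without SKO. Neither gene was far above the lower quartile without SKO, and both reached the brighter part of the arrays with it. The differences were 5.78 ± 0.13 for Akr1c18 (limma adjusted p = 2.98e-06) and 5.44 ± 0.15 for Aldh3a1 (adjusted p = 6.83e-06). Next came Gna14, a G protein alpha subunit (4.28), Sostdc1, a secreted antagonist of BMP that also modulates Wnt signals (4.18), Aspa, which splits N-acetylaspartate (4.05), and Crym, a thyroid hormone binding protein (3.91). The angiopoietin receptor gene Tek, known from endothelium, was at 8.16, 8.29 and 8.36 with SKO, against 4.42, 4.01 and 4.75 without SKO (3.87 ± 0.16, adjusted p = 3.78e-05). The remaining genes of the top 15 were the embryonic globin gene Hbb-y (3.80), the adhesion gene Ceacam1 (3.71), Mfsd6 (3.60), Fam110c (3.48), the cystathionine gamma-lyase gene Cth (3.48), the sialomucin gene Podxl (3.34) and the surface peptidase gene Dpp4 (3.33). For all 15 genes the arms did not overlap, which a choice of the largest rises favours. The same held for 6721 of all 19938 genes.

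Tek was the only endothelial marker that rose. Among 10 endothelial markers, Tek rose and the VEGF receptor gene Flt1 fell (-0.64, limma adjusted p = 0.0155), and 8 were not called, among them Cdh5 (-0.24), Pecam1 and Kdr (0.18). The median of the 10 was -0.05. Their summed level was 8.93 to 9.03 with SKO, against 7.90 to 7.98 without SKO, and Tek was the only member that rose. Of 12 macrophage and leukocyte markers 10 lay below 0 and 2 above, with a median of -0.23, where 11123 of all 19938 genes lay below 0. The 2 above 0 were called. Laptm5, a lysosomal membrane gene, was at 6.37, 7.03 and 7.50 with SKO, against 5.15, 5.06 and 5.38 without SKO (1.77 ± 0.19, adjusted p = 0.00122), and Itgam rose by 0.84. Lyz2 fell by 0.74 and 9 of the 12 were not called. Their summed level was 8.67 to 8.87 with SKO, against 8.62 to 8.89 without SKO. Of 10 neural markers Stmn2, a tubulin-binding gene, and Nes, an intermediate filament gene, rose (2.11 and 0.59) and 8 were not called. Stmn2 was at 9.93, 10.21 and 10.09 with SKO, against 7.99, 7.86 and 8.06 without SKO, so it was well above the lower quartile in both arms. The summed level of the 10 was 10.43 to 10.61 with SKO, against 9.21 to 9.32 without SKO, and Stmn2 made up most of the sum with SKO. The median of the 10 was 0.17, with 0.17, -0.15 and 0.59 in the blank virus, cluster B and cluster C pairs. Of 8 keratinocyte markers Krt14 rose, and the summed level was 7.63 to 7.77 with SKO, against 7.51 to 7.62 without SKO. Of 12 muscle markers 0 rose and 2 fell, at 8.60 to 8.83 with SKO, against 9.09 to 9.13 without SKO. Of 11 trophoblast and endoderm markers 0 rose and 1 fell, at 8.06 to 8.27 with SKO, against 8.33 to 8.40 without SKO. As 6.39% of all genes rose and 5.60% fell, single calls in marker lists this short say little about a cell type. The part of other cell types in the results was not tested.

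The fibroblast program fell in part. Of 12 genes taken as markers of embryonic fibroblasts, 0 rose, 7 fell and 5 were not called, with a median of -0.81. The summed level was 14.08 to 14.32 with SKO, against 14.86 to 14.89 without SKO. In a mixed culture, fewer fibroblasts and less of these transcripts per fibroblast cannot be told apart. Pdgfra, the PDGF receptor alpha gene, was at 7.99, 7.55 and 7.45 with SKO, against 9.86, 9.79 and 9.91 without SKO. The arms were far apart, and the fall was -2.19 ± 0.15 (limma adjusted p = 0.000223). Pdgfrb fell by 1.34 ± 0.15 (adjusted p = 0.00144), Lum by 1.30, Col3a1 by 1.28, Col1a1 by 0.97, Col1a2 by 0.83 and Fn1 by 0.78. Thy1, Twist1, Vim, Prrx1 (-0.19) and Dcn (0.47, adjusted p = 0.0582) were not called. In a wider list of 20 surface and signalling genes of fibroblasts, 2 rose and 7 fell, with a median of -0.20. The growth factor genes Hgf (-2.31 ± 0.16) and Fgf7 (-1.32 ± 0.13) and the collagen receptor gene Itga11 (-2.02 ± 0.13) fell. The ectonucleotidase gene Nt5e went the other way, at 8.02, 8.27 and 8.14 with SKO, against 5.64, 5.66 and 5.50 without SKO (2.55 ± 0.13, adjusted p = 6.23e-05), as did Cd44 (0.74).

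Matrix genes fell broadly. Of 22 collagens, which form the fibrils and sheets of the matrix, 0 rose and 12 fell, with a median of -0.52, and 19 of 22 lay below 0. Col12a1 (-1.52 ± 0.16) and Col5a2 (-1.5 ± 0.16) fell most. Col1a1, the main collagen of fibroblasts, was at 12.10, 11.81 and 11.89 with SKO, against 12.88, 12.94 and 12.90 without SKO (-0.97 ± 0.13, limma adjusted p = 0.00367). The arms did not overlap, even at the top of the scale. Basement membrane collagens were mixed. Col4a1 (0.05), Col4a2 (0.07), Col4a5 (-0.47) and Col4a6 (-0.13) were not called, and Col18a1 fell by 0.48 (adjusted p = 0.0464). Among 26 elastic fibre and crosslinking genes, 2 rose and 16 fell, with a median of -0.78. Lox, which crosslinks collagen and elastin, was at 9.19, 9.15 and 8.90 with SKO, against 10.98, 10.89 and 10.90 without SKO (-1.84 ± 0.13, adjusted p = 0.000229). Postn, an adhesive matrix protein gene, fell by 1.81 and Loxl1 by 1.44. The elastin gene Eln rose instead, at 8.09, 7.86 and 7.91 with SKO, against 6.36, 6.61 and 6.81 without SKO (1.36 ± 0.16, adjusted p = 0.00179), and so did Fbln5, which helps elastin assemble (0.72).

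Small proteoglycans that coat collagen fibrils were split. Of 14 measured, 1 rose and 6 fell, with a median of -0.27. Ogn was at 7.42, 7.38 and 7.03 with SKO, against 9.77, 9.76 and 10.05 without SKO (-2.59 ± 0.17, limma adjusted p = 0.000168). Aspn (-1.88), Podn (-1.55) and Lum also fell. Prelp rose, at 8.99, 8.77 and 8.8 with SKO, against 6.89, 6.98 and 6.65 without SKO (2.01 ± 0.14, adjusted p = 0.000196). Among 23 genes of matrix proteases and their inhibitors, 3 rose and 13 fell, with a median of -0.56. The plasminogen activator gene Plat (-1.93), the collagenase gene Mmp13 (-1.75), the protease gene Adamts1 (-1.60) and the membrane protease gene Mmp14 (-1.02) fell. Stromelysin Mmp3 (1.62 ± 0.18), Mmp10 (0.63) and the inhibitor Timp3 (1.57 ± 0.13) rose.

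Contractile genes fell broadly. In smooth muscle and activated fibroblasts they encode actin fibres and their regulators, and many are targets of the serum response factor Srf. Of 23 measured, 0 rose and 18 fell, all 23 lay below 0, and the median was -0.78. Cnn1, the calponin gene, was at 5.99, 5.71 and 5.67 with SKO, against 8.10, 7.73 and 7.95 without SKO (-2.14 ± 0.13, limma adjusted p = 0.000125). Myl9 (-1.71), Tagln (-1.65), the kinase gene Mylk (-1.57) and Tpm1 (-1.44) followed. Acta2, the actin of myofibroblasts, was at 11.19, 10.88 and 10.94 with SKO, against 12.17, 12 and 12.17 without SKO (-1.11 ± 0.13, adjusted p = 0.00178). Srf itself was not called (-0.34, adjusted p = 0.165). Without the cluster C pair 10 of the 23 fell, and without the blank virus or cluster B pair 14 and 17.

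Transcription factors that drive mesenchymal identity fell in part. Of 25, 1 rose and 11 fell, with a median of -0.44. Osr1 (-1.31 ± 0.12), Meox1 (-0.99), Snai2 (-0.92 ± 0.17, limma adjusted p = 0.0121) and Snai1 (-0.81 ± 0.14, adjusted p = 0.00884) fell, the last 2 being repressors of the E-cadherin gene Cdh1. Zeb1, another such repressor, was at 7.75, 7.73 and 7.03 with SKO, against 8.41, 8.02 and 8.5 without SKO (-0.80 ± 0.22, adjusted p = 0.0556). It was not called, and its array with cluster C stood lowest. The homeobox gene Meox2 was the exception, at 7.30, 7.76 and 7.64 with SKO, against 5.18, 4.78 and 4.60 without SKO (2.71 ± 0.20, adjusted p = 0.000271). The count that fell was 6 without the blank virus pair, 10 without the cluster B pair and 3 without the cluster C pair.

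**Figure D3:**
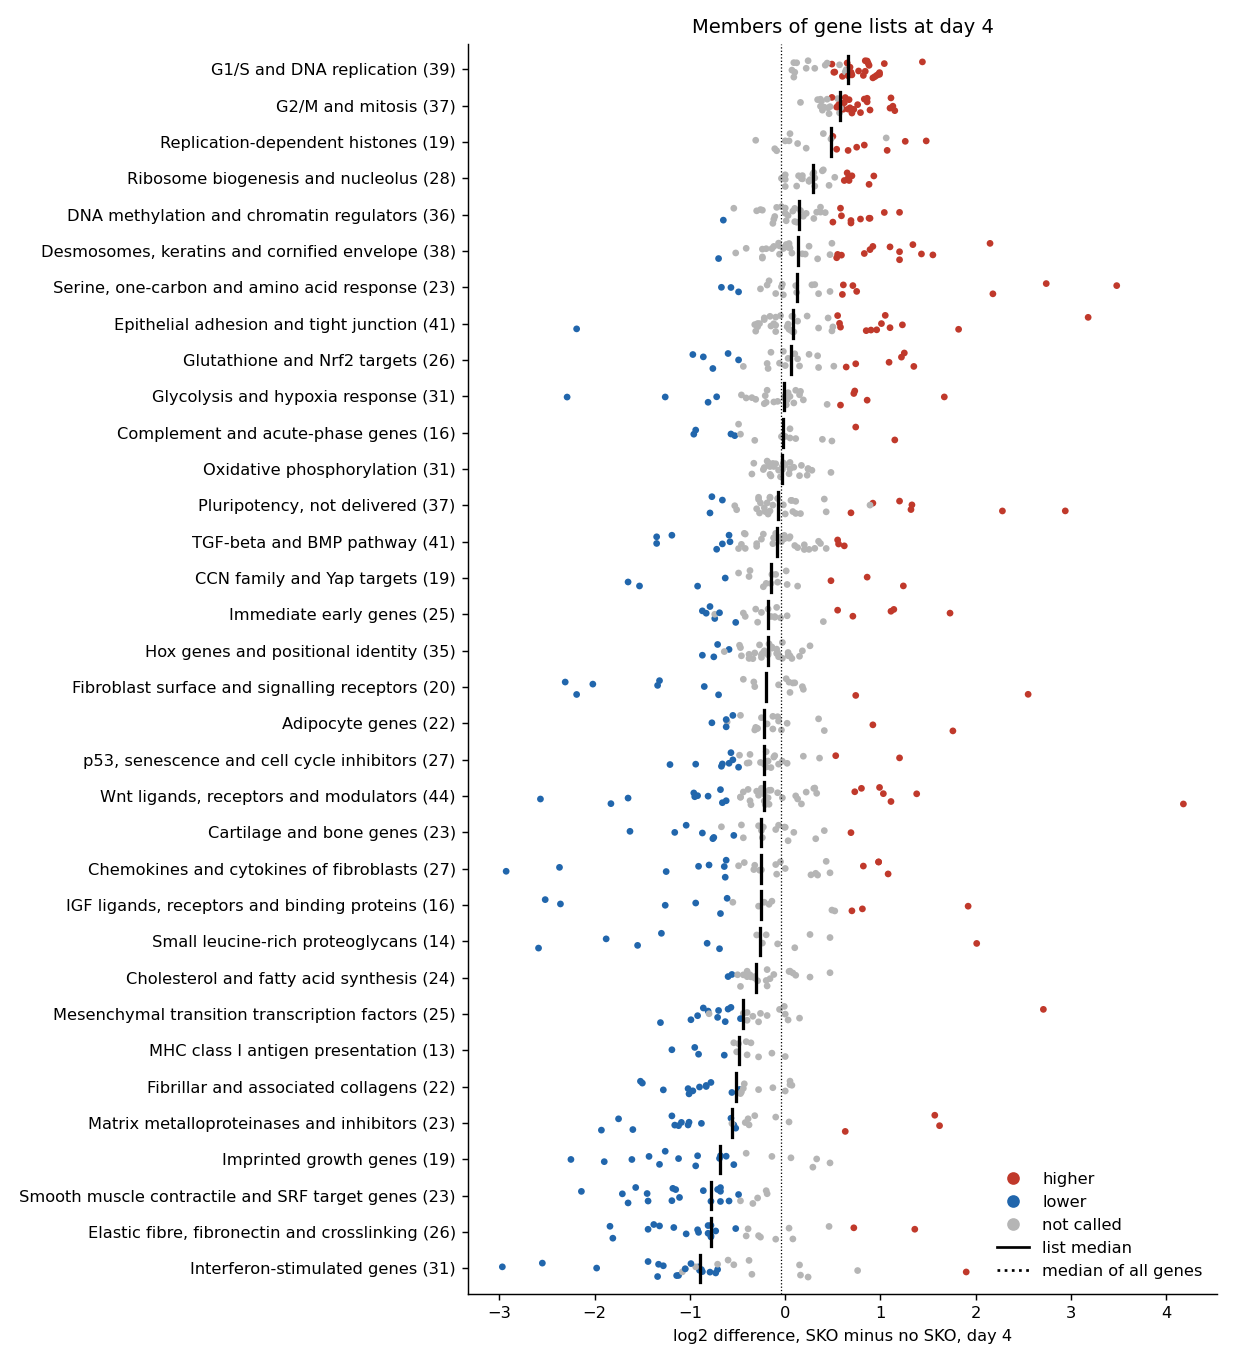
Log2 difference of each member of 34 gene lists (x axis, SKO minus no SKO at day 4), 1 row per list with the number of measured members in parentheses. Red and blue points rose and fell, grey points were not called, bars mark list medians and the dotted line the median of all genes (-0.04); replication genes stand highest, and interferon-stimulated, elastic fibre and contractile genes lowest.

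Epithelial genes rose as a subset. Of 41 adhesion and tight junction genes, 12 rose, 1 fell and 28 were not called. The median was 0.08, beside -0.04 over all genes. It differed in sign between the pairs, at 0.24, -0.15 and 0.37 with blank virus, cluster B and cluster C. Itgb4, the integrin of hemidesmosomes, was at 8.37, 8.69 and 8.31 with SKO, against 5.27, 5.21 and 5.34 without SKO (3.18 ± 0.15, limma adjusted p = 4.56e-05). Cdh1, the E-cadherin gene, was at 5.05, 5.27 and 5.72 with SKO, against 4.18, 4.06 and 4.10 without SKO (1.23 ± 0.17, adjusted p = 0.00342). Both genes separated the arms in all pairs, and Cdh1 stayed at a low level. The epithelial factor gene Ehf (1.82), the claudin gene Cldn1 (1.10), the laminin gene Lama3 (1.05) and the adhesion gene Epcam (1.01 ± 0.13) rose too. The tight junction gene Cldn7 (-0.22), the splicing regulator gene Esrp1 (-0.27) and the transcription factor gene Grhl2 (-0.12) were not called. P-cadherin gene Cdh3 fell, at 4.80, 4.52 and 4.72 with SKO, against 6.88, 6.70 and 7.02 without SKO (-2.19 ± 0.13, adjusted p = 0.000107).

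Desmosome, keratin and cornified envelope genes behaved alike, with 13 of 38 that rose, 1 that fell and a median of 0.13. The desmoplakin gene Dsp, which ties desmosomes to keratin, was at 6.73, 7.04 and 6.90 with SKO, against 4.73, 4.82 and 4.68 without SKO (2.15 ± 0.13, limma adjusted p = 0.00012). Pkp1 (1.43) and Dsc2 (1.34), further desmosome genes, and the crosslinking enzyme gene Tgm1 (1.55) also rose. Krt14 rose by 1.2 ± 0.14 and Krt8 by 0.83 ± 0.19, while Krt7 fell by 0.70 and Krt18 (-0.41) and Krt5 (0.07) were not called. Epidermal master regulator Trp63 was not called either (0.25).

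Some genes of the pluripotent state rose, and most were not called. Of 37 that were not delivered, 7 rose, 3 fell and 27 were not called, where 6.39% of all genes rose and 5.60% fell. The median was -0.08, and it differed in sign between the pairs, at 0.18, -0.29 and 0.08. L1td1, an RNA-binding protein gene of embryonic stem cells, was at 7.19, 7.22 and 7.39 with SKO, against 3.97, 4.69 and 4.30 without SKO (2.94 ± 0.17, limma adjusted p = 9.84e-05). Fbxo15, a known Oct4 target, was at 4.44, 5.38 and 5.61 with SKO, against 2.95, 2.80 and 2.85 without SKO (2.28 ± 0.24, adjusted p = 0.00114). It was lowest of the 3 with blank virus, and without SKO it lay below the lower quartile. Tfcp2l1 (1.33 ± 0.13), a naive pluripotency factor, Gdf3 (1.32 ± 0.18), a TGF-beta family ligand, Tet2 (1.2 ± 0.16), which oxidises methylcytosine, Fgf4 (0.92 ± 0.15) and Mybl2 (0.69 ± 0.13) rose as well. Nanog, a core factor, was at 5.34, 5.33 and 5.37 with SKO, against 4.95, 5.52 and 5.23 without SKO, with overlapping arms (0.11 ± 0.15, adjusted p = 0.72). Esrrb (-0.22), Sall4 (-0.19), Zfp42 (-0.16) and Dppa5a (-0.51) were not called. Klf2 (-0.79), Klf5 (-0.77) and the Ras-like gene Eras (-0.66) fell. Among 36 chromatin regulators 10 rose and 1 fell, with a median of 0.14. The Polycomb genes Suz12 (0.89) and Ezh2 (0.69) and the maintenance methyltransferase gene Dnmt1 (0.58) were among those that rose, and the demethylase gene Kdm5b fell by 0.65. The 10 became 5 without the blank virus pair, 7 without the cluster B pair and 5 without the cluster C pair.

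Cell cycle genes rose together. Of 39 genes of DNA replication and the G1/S transition, 26 rose, 0 fell and all 39 lay above 0, with a median of 0.66. Of 37 genes of G2/M and mitosis, 22 rose, 0 fell and all 37 lay above 0, with a median of 0.58. The replication genes that rose were 18 without the blank virus pair, 17 without the cluster B pair and 15 without the cluster C pair. The mitotic genes that rose were 12, 13 and 11 in that order. Ccnd1, the D cyclin gene of G1, which is in neither list and was looked up after the values were seen, was at 11.12, 11.13 and 11.09 with SKO, against 9.63, 9.67 and 9.51 without SKO (1.51 ± 0.12, limma adjusted p = 0.000437).

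Rrm2, a subunit of the enzyme that makes deoxynucleotides, was at 9.55, 9.51 and 9.54 with SKO, against 8.12, 8.18 and 7.98 without SKO (1.44 ± 0.13, limma adjusted p = 0.000581). Mcm6, part of the replicative helicase, was at 9.0, 9.03 and 8.97 with SKO, against 8.10, 7.85 and 7.94 without SKO (1.04 ± 0.13, adjusted p = 0.00248). Within each arm both genes varied little. The helicase genes Mcm7 (0.96) and Mcm5 (0.94), the clamp gene Pcna (0.99) and the polymerase gene Pola1 (0.99) rose as well. On the mitotic side were Nusap1 (1.15 ± 0.16), Anln (1.13), the proliferation marker Mki67 (1.11 ± 0.17) and Ect2 (1.10). The cyclin E genes Ccne1 (0.09) and Ccne2 (0.57, adjusted p = 0.0516) were not called. Of 19 replication-dependent histone genes 8 rose and 0 fell, with a median of 0.48. This fell to 4 without the cluster B pair and 2 without the cluster C pair, and to 7 without the blank virus pair. Of 28 ribosome biogenesis genes 7 rose and 0 fell, with a median of 0.29, led by Rrs1 (0.93) and Dkc1 (0.88). The 7 became 3 without the blank virus pair, 5 without the cluster B pair and 3 without the cluster C pair. On the other side, 8 of 27 genes of p53 targets, senescence and cell cycle inhibitors fell and 2 rose. They included the inhibitors Cdkn1c (-0.94) and Cdkn2b (-0.66) and the antiproliferative Btg2, at 6.69, 6.8 and 6.79 with SKO, against 7.97, 7.98 and 7.97 without SKO (-1.21 ± 0.12, adjusted p = 0.001). The 8 became 2 without the blank virus pair, 4 without the cluster B pair and 2 without the cluster C pair.

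E2F factors drive replication genes at the G1/S transition. Promoters were read from RefSeq for GRCm38.p6, from 250 bases before to 50 after the start site, and searched on both strands for TTTCGCGC or TTTGGCGC, forms of the E2F site. Such letters were in 0.813% of 32851 promoter windows and in 0.929% of 27025 genes. Of the 39 replication genes, 33 had a window and 13 of those held the letters, among them 11 of the 23 that had a window and rose. The promoters of a pair of helicase genes that rose are shown, with each match in capitals, where matches on opposite strands may overlap.
Mcm6 (chr1:128359656-128359955, minus strand): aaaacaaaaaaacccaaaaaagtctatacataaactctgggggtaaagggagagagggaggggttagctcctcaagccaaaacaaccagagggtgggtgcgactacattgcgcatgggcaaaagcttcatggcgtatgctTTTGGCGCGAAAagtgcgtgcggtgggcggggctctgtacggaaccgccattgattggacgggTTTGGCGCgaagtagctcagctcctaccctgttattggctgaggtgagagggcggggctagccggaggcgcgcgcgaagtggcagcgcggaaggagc
Mcm5 (chr8:75109259-75109558, plus strand): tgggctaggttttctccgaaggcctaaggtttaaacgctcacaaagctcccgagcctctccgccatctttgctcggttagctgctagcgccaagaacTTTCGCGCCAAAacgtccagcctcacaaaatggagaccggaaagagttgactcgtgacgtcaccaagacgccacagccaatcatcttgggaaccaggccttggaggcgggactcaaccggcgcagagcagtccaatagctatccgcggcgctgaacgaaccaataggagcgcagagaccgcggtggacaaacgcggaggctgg
The match is a description of these letters and not a measured site.

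Interferon-stimulated genes fell, and were the list with the lowest median. They form the antiviral program that cells switch on when they sense interferon. Of 31 measured, 1 rose, 18 fell and 12 were not called, with a median of -0.90. Promoters of 3 that fell are shown, with the letters GAAANNGAAA, a form of the interferon response element, in capitals on either strand (RefSeq, GRCm38.p6).
Ifit3 (chr19:34583279-34583578, plus strand): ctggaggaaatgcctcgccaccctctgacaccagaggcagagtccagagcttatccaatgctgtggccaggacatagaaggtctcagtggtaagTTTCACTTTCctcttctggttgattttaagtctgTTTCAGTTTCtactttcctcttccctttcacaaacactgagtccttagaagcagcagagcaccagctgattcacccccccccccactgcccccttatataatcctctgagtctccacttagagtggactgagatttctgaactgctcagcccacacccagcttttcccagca
Ifit1 (chr19:34640639-34640938, plus strand): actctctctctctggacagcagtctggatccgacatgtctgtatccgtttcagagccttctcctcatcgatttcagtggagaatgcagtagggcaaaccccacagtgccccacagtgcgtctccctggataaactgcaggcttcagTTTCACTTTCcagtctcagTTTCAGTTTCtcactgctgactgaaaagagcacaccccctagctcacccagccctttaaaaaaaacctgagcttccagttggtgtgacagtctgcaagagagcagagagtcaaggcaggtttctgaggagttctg
Cxcl10 (chr5:92348840-92349139, minus strand): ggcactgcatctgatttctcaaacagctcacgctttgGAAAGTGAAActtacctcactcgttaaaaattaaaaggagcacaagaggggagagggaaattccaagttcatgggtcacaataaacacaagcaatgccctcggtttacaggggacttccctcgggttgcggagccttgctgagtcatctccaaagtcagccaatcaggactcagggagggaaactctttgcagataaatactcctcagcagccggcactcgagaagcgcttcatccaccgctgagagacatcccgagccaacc
The letters were in 3.44% of 32851 promoter windows and in 3.99% of 27025 genes. Of the 31 interferon genes 22 had a window, and 15 of those held the letters, among them 11 of the 13 that had a window and were called.

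Ifit3, an antiviral RNA-response gene, was at 7.13, 5.59 and 6.12 with SKO, against 9.42, 9.41 and 8.92 without SKO (-2.97 ± 0.26, limma adjusted p = 0.000581), the largest fall of all genes. Ifit1 was at 7.89, 6.22 and 7.02 with SKO, against 9.31, 8.73 and 9.02 without SKO (-1.98 ± 0.20, adjusted p = 0.00104). The array with SKO and cluster B was the lowest for both genes. Cxcl10, a chemokine that draws T cells, was at 4.88, 4.56 and 4.86 with SKO, against 7.76, 7.51 and 6.68 without SKO (-2.55 ± 0.23, adjusted p = 0.000581). Rsad2 (-1.44 ± 0.16), Usp18 (-1.34 ± 0.25), Mx2 (-1.28 ± 0.16) and Bst2 (-1.14 ± 0.23) fell, and outside the list Ifit3b (-2.48) and the interferon-induced GTPase gene Iigp1 (-2.37). Stat2, a transcription factor gene of the interferon response, fell by 1.05 ± 0.20 (adjusted p = 0.0139), while Irf7 (-0.71, adjusted p = 0.0838) and Irf9 (-0.38) were not called. Oas2, which makes 2-5A to activate RNase L, rose, at 7.30, 6.44 and 7.38 with SKO, against 5.08, 5.03 and 5.29 without SKO (1.90 ± 0.18, adjusted p = 0.000739).

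The pairs differed in size here. The list's median difference was -0.55 in the blank virus pair, -1.28 in the cluster B pair and -0.82 in the cluster C pair. Its mean level was 6.52, 5.74 and 6.19 with SKO, against 7.05, 7.01 and 6.85 without SKO. The arms did not overlap, and the array with SKO and cluster B stood lowest. Without the cluster B pair 14 of the 31 fell, with a median of -0.63. Of 13 MHC class I antigen presentation genes, which interferon also controls, 0 rose and 4 fell, with a median of -0.49 and 12 of 13 below 0. The immunoproteasome gene Psmb8 (-1.19 ± 0.21) and the peptide transporter gene Tap1 (-0.95 ± 0.16) fell, and B2m (-0.36, limma adjusted p = 0.155) was not called. The count was 7 when 12 arrays shared the spread, 2 without the cluster B pair and 3 without either of the others.

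**Figure D4:**
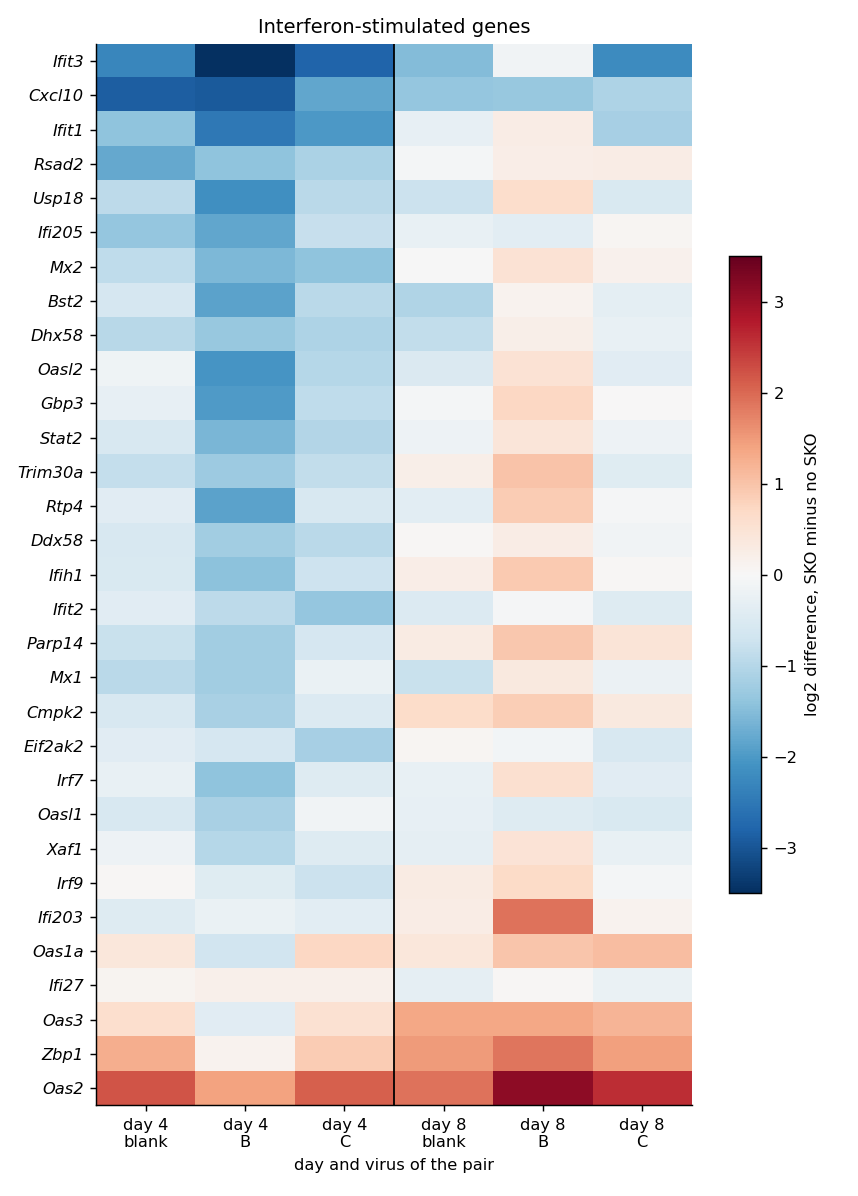
SKO minus no SKO (colour, log2; blue is lower with SKO) of 31 interferon-stimulated genes, 1 row each, in the 3 virus pairs of day 4 (left) and of day 8 (right). At day 4 most cells are blue and the cluster B column is darkest, with medians of -0.55, -1.28 and -0.82, and at day 8 the median is 0.02.

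Other secreted signals changed both ways. Cxcl12, a chemokine that attracts stem and immune cells, was at 6.49, 6.34 and 6.27 with SKO, against 9.36, 9.09 and 9.43 without SKO (-2.93 ± 0.14, limma adjusted p = 4.7e-05). Of 27 chemokines and cytokines 4 rose and 8 fell, with a median of -0.25. Cxcl15 (-2.37) and Cxcl5 (-1.25) fell, and so, outside the list, did Lrrc17 (-2.52), Enpep (-2.34), Plac8 (-2.37) and Abi3bp (-2.36), further genes of the 15 largest falls. The monocyte chemokine genes Ccl8 (1.08), Ccl7 (0.98) and Ccl2 (0.98) rose. The 8 became 5 without the blank virus pair, 6 without the cluster B pair and 5 without the cluster C pair. In the IGF system 3 of 16 rose and 6 fell, with a median of -0.25. The growth factor gene Igf2 (-1.26 ± 0.14) and its binding proteins Igfbp2 (-2.52 ± 0.14) and Igfbp5 (-2.36 ± 0.17) fell. Igfbp3 rose, at 10.48, 10.29 and 10.25 with SKO, against 8.36, 8.44 and 8.48 without SKO (1.92 ± 0.13, adjusted p = 0.000224). Without the cluster C pair 3 of the 16 fell, and with a spread shared by 12 arrays 5 rose.

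Among 44 Wnt genes 7 rose and 10 fell, with a median of -0.22. Rspo2, which strengthens Wnt signals, was at 6.17, 6.16 and 6.30 with SKO, against 8.69, 8.96 and 8.68 without SKO (-2.57 ± 0.14, limma adjusted p = 7.87e-05). Dkk3 (-1.83) and Ccn5 (-1.65) fell, and besides Sostdc1 the ligand gene Wnt2 (1.38) and the nuclear effector gene Lef1 (1.11) rose. The 10 became 6 without the cluster C pair. Of 41 TGF-beta and BMP pathway genes 3 rose and 7 fell, beside 6.39% and 5.60% of all genes, with a median of -0.09. The falls were led by the ligand gene Tgfb3 and the co-receptor gene Tgfbr3 (-1.35 each). The 3 became 0 with any 1 pair left out, and the 7 became 3 without the blank virus pair and 4 without the cluster C pair. With a spread shared by 12 arrays 5 rose and 11 fell. Among 25 immediate early genes and regulators of the growth factor response 5 rose and 6 fell, with a median of -0.18. Egr1 (-0.87) and Fos (-0.69), which serum and growth factors induce, fell. Etv5 (1.73 ± 0.13), Spry4 (1.14) and Dusp6 (0.55), which respond to FGF signals, rose. The 5 became 2 without the cluster B pair and 3 without either of the others.

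Most imprinted genes of the list fell. These are read from 1 parental copy, and many control fetal growth. Of 19 measured, 0 rose, 13 fell and 6 were not called, with a median of -0.69. The 4 above 0 were not called. Zim1 (-2.25 ± 0.20) fell most. Peg3 was at 6.53, 6.49 and 6.44 with SKO, against 8.13, 8.27 and 8.75 without SKO (-1.90 ± 0.17, limma adjusted p = 0.000569). Dlk1 (-1.61 ± 0.14), a Notch-like inhibitor of fat cell formation, and its noncoding neighbours Rian (-1.43) and Meg3 (-1.32) fell as well, and Grb10 (-0.41) was not called. Of 35 Hox and other positional genes 0 rose and 4 fell, beside 6.39% and 5.60% of all genes, with a median of -0.18. Hoxc8 (-0.87) and Hoxa5 (-0.75) were among the 4. In all, 28 of the 35 lay below 0, beside 11123 of all 19938 genes. The 4 became 10 when 12 arrays shared the spread, and 2 without the blank virus pair or the cluster C pair.

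Metabolic lists changed in a few enzymes and transporters. Of 23 genes of serine, one-carbon and amino acid metabolism 7 rose and 3 fell, with a median of 0.12. Cth, which makes cysteine, was at 8.30, 8.56 and 8.65 with SKO, against 5.18, 4.82 and 5.07 without SKO (3.48 ± 0.16, limma adjusted p = 4.07e-05). The cystine importer gene Slc7a11 (2.74 ± 0.13) and the cationic amino acid transporter gene Slc7a3 (2.18 ± 0.18) followed. Without the cluster C pair 4 of the 23 rose. The 3 that fell became 1 without the cluster B pair and 0 without either of the others. Of 26 glutathione and Nrf2 target genes 6 rose and 5 fell, with a median of 0.06. The glutathione reductase gene Gsr (1.35 ± 0.12) and the transferase gene Gsta4 (1.22) rose, and Hmox1 (-0.97) fell. Those that fell became 0 without the blank virus pair and 1 without the cluster C pair. Of 31 glycolysis and hypoxia genes 5 rose and 4 fell, with a median of -0.01. The hypoxia-inducible genes split, with Adm at 7.21, 6.88 and 6.98 with SKO, against 9.3, 9.31 and 9.32 without SKO (-2.29 ± 0.13, adjusted p = 0.000111), and Egln3 rising by 1.67 ± 0.13. Those that rose became 3 without the blank virus pair. Of 31 oxidative phosphorylation genes limma called 0, with 2 at an unadjusted p under 0.05 and a median of -0.03.

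The day 4 differences were then set beside those at day 8, which come from 6 other arrays. The SKO difference at day 8 minus that at day 4 was called for 301 genes in the positive direction (1.51%) and 154 in the negative direction (0.772%), by limma over 12 arrays. Left out in turn, the pairs gave 48 to 67 and 23 to 34 such genes. Most changed genes kept their sign. Of the 1275 higher genes 1223 (95.9%) were above 0 at day 8 too, and of the 1117 lower genes 1037 (92.8%) were below 0. Across all genes the effects at day 4 and day 8 correlated at 0.75. Pou5f1 differed by 7.85 at day 4 and 7.86 at day 8.

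Some changes were larger early. Akr1c18 was at 6.23, 6.24 and 6.99 with SKO at day 8, against 3.26, 3.41 and 3.21 without SKO, a change of -2.59 ± 0.25 in its difference from day 4 (limma adjusted p = 0.00112). The differences of Myc (-0.91, adjusted p = 0.0304), Sostdc1 (-1.38, adjusted p = 0.0306), Rgs5 (-2.25) and Rrm2 (-0.92, adjusted p = 0.0219) also moved down. Myc without SKO was higher at day 8 than at day 4, at 7.35, 7.62 and 7.34. Rgs5, a regulator of G protein signals known from pericytes, differed by 1.67 at day 4 and by -0.58 at day 8. For replication genes the median difference was 0.66 at day 4 and 0.20 at day 8, with 2 of 39 called for the change, and for mitotic genes 0.58 and 0.32, with 0 of 37.

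The fall of the interferon genes as a list was seen at day 4. Their median difference was 0.02 at day 8, and 7 of 31 were called as more positive at day 8, with 0 more negative. Mean levels at day 8 were 6.16, 6.4 and 6.17 with SKO, against 6.24, 5.84 and 6.23 without SKO, where the arms overlapped. Beside the day 4 means, levels without SKO were lower at day 8 on all 3 arrays. The interferon-induced genes with the largest falls at day 4 had smaller differences at day 8 that were still below 0, and that day's effect was not tested by itself. These were -1.28 for Ifit3, -1.25 for Cxcl10, -1.04 for Iigp1 and -0.86 for Ifit3b, and the change between days was called for all but Ifit3 (adjusted p = 0.139). For others the difference at day 8 lay above 0. Rsad2 was at 4.60, 4.79 and 4.94 with SKO at day 8, against 4.67, 4.57 and 4.68 without SKO. Its difference moved up by 1.57 ± 0.20 (limma adjusted p = 0.00541), and that of Mx2 by 1.5 ± 0.22 (adjusted p = 0.00963). The difference of Btg2 moved likewise (1.56 ± 0.15, adjusted p = 0.00104), to 0.34 at day 8. With SKO Btg2 was at 6.73, 6.74 and 6.78 at day 8, close to its day 4 values. Without SKO it was at 6.38, 6.48 and 6.36, lower than at day 4.

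Other differences were more positive at day 8 than at day 4. Dppa5a, a gene that pluripotent cells are known for, was at 3.53, 3.48 and 3.30 with SKO at day 4, against 3.94, 3.56 and 4.35 without SKO. At day 8 it was at 6.61, 6.82 and 10.22 with SKO, against 3.40, 4.02 and 4.12 without SKO, a change of 4.55 ± 0.71 (limma adjusted p = 0.0138) in which the array with cluster C stood highest. Enpp3, a surface nucleotide pyrophosphatase gene, differed by 0.37 at day 4 and 3.94 at day 8, a change of 3.57 ± 0.19 (adjusted p = 7.19e-05). Angptl7 (3.02), the acute-phase gene Saa3 (3.01) and the kallikrein gene Klk1b5 (2.90) were next. Angptl7 fell at day 4 (-0.89), and its difference at day 8 was 2.13. Epcam was at 7.20, 7.32 and 7.85 with SKO at day 8, against 3.89, 4.24 and 3.77 without SKO, a change of 2.47 ± 0.25 (adjusted p = 0.00137). Medians at day 4 and day 8 were 0.08 and 0.62 for epithelial adhesion genes, with 10 of 41 called as more positive. For pluripotency genes they were -0.08 and 0.36, with 4 of 37 called as more positive. At day 4 the medians of these lists were below 0 in the cluster B pair (-0.15 and -0.29) and above 0 in the other pairs. Dpp4 differed by 3.33 at day 4 and 5.73 at day 8 (2.40 ± 0.21).

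On the negative side were several matrix genes. The proteoglycan gene Epyc was at 3.25, 3.16 and 3.06 with SKO at day 4, against 3.84, 3.88 and 3.82 without SKO, all close to the lower quartile. At day 8 it was at 3.27, 2.86 and 3.34 with SKO, against 7.14, 6.89 and 7.31 without SKO, a change of -3.27 ± 0.15 (limma adjusted p = 3.59e-05). Further matrix genes were Kera (-2.99), Ccn3 (-2.40), Dpt (-2.34) and Lum (-1.71), with Akr1c18 and Rgs5 lying among them in size. Kera was at 4.31, 4.06 and 4.13 with SKO at day 8, against 7.31, 7.32 and 7.43 without SKO. For these genes the values with SKO were close at both days, and those without SKO were higher at day 8.

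**Figure D5:**
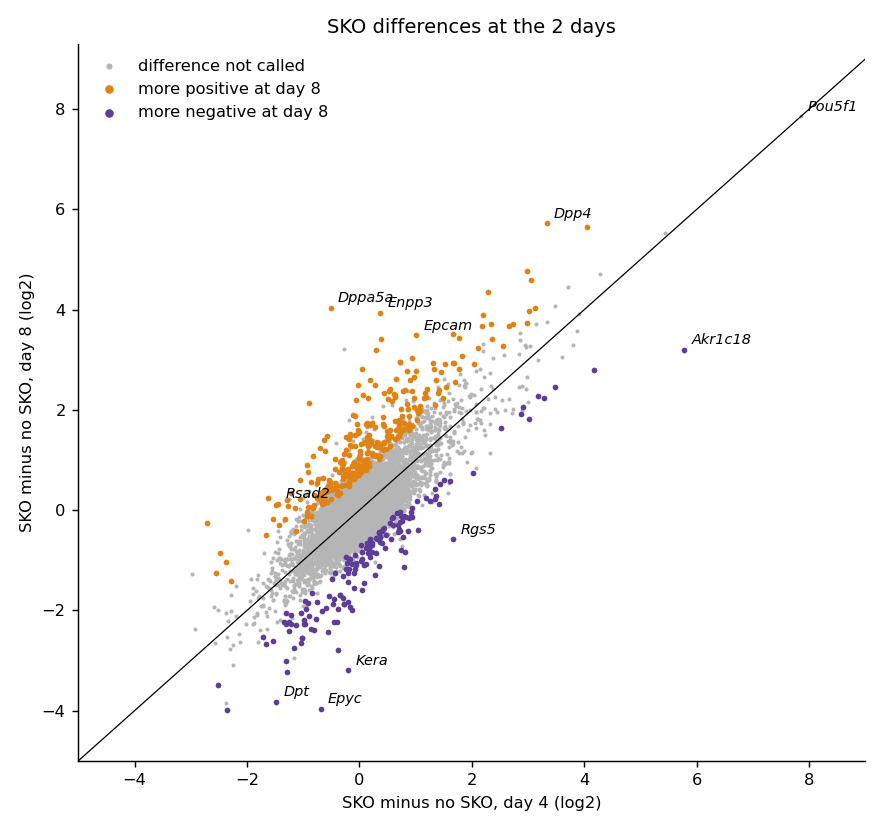
SKO minus no SKO at day 4 (x axis, log2) against the same at day 8 (y axis, log2), 1 point per gene, with the line of equal differences. Orange points are the 301 genes whose difference was more positive at day 8 and purple the 154 whose difference was more negative; Pou5f1 lies on the line, Akr1c18 and Rgs5 below it and Dppa5a, Enpp3 and Epcam above it.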

How the data were processed

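RNA of 12 samples, 6 of them at day 4, was measured on Affymetrix whole-transcript arrays. The authors deposited log2 expression values made with RMA in Partek, per the submitters' processing notes. Versions are not stated, and the genome build is not given in the sources used here. RMA brings all arrays to a like distribution, and thereby hides any shift common to most genes. Of 28853 probe sets 21789 named 1 gene, 1621 several and 5443 none in the platform annotation. Entrez numbers matched a current gene for 21698, and 0 symbols changed. Where a gene had several probe sets (999 genes), that of highest mean value represented it, which left 19938 genes.

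Groups, viruses and days came from the sample titles. limma 3.58.1 in R 4.3.3 was fitted to the 6 day 4 arrays with virus as a block and SKO as the effect (2 residual degrees of freedom, prior 5.45, median residual SD 0.160). p-values were adjusted by Benjamini-Hochberg over all genes, and a call needed an adjusted p under 0.05 and the same sign in 3 pairs. Day 8 minus day 4 used all 12 arrays (4 residual degrees of freedom, prior 5.51). The pairing by virus comes from the labels. Deviations of same-virus arrays from their group means correlated at -0.03, -0.22 and -0.05 for blank virus, cluster B and cluster C. The closest day 4 arrays differed by a mean of 0.196 per probe set, so none was a repeat deposit.

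Genes were named by rule, namely the 15 largest rises and falls, the 5 largest differences between days in each direction, Pou5f1, Klf4, Sox2 and Myc, and of each list up to 3 highest, 3 lowest and defining members. A few others were added after their values were seen, and symbols of clones, receptor families and small RNAs were left out. Members and lists were chosen with earlier results of these data known. Lists were described by counts and medians only. Fits were tested on simulated data. Alternatives were the fit without block, a spread shared by 12 arrays, a variance trend, other normalizations, dim genes left out, other probe set rules, a minimum change of 1.5-fold and each pair left out. Summaries and plots used Python 3.11.15, numpy 2.4.6, pandas 2.3.3 and matplotlib 3.10.9.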

Additional observations from a re-analysis of the deposited data

Results flagged for a closer look

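For the named genes below, the SKO difference at day 8 minus that at day 4 passed an adjusted p of 0.05 in limma over 12 arrays. Values are on the log2 scale, and a positive one means a more positive difference at day 8.

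Among genes of the pluripotent state these were Dppa5a (4.55), Fbxo15 (2.08), Zfp42 (1.66) and Tfcp2l1 (1.49). Epithelial genes were Epcam (2.47), Krt7 (1.94), Ehf (1.26), Krt14 (1.21) and Lama3 (0.92). Krt7 fell at day 4 and was higher with SKO at day 8. Interferon-induced genes were Ifit3b (1.62), Rsad2 (1.57), Mx2 (1.5), Iigp1 (1.33) and Cxcl10 (1.31). The early response and cell cycle genes Btg2 (1.56) and Fos (0.88) moved the same way, as did the chemokine gene Ccl8 (0.90). Enzymes, transporters and surface proteins were Enpp3 (3.57), Klk1b5 (2.90), Dpp4 (2.40), Egln3 (1.85), Aspa (1.60), Slc7a3 (1.5), Slc7a11 (0.97) and Nt5e (0.73), and secreted proteins Angptl7 (3.02) and Saa3 (3.01).

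In the negative direction, matrix genes were Epyc (-3.27), Kera (-2.99), Ccn3 (-2.40), Dpt (-2.34), Lum (-1.71), Abi3bp (-1.63), Mmp3 (-1.04), Dcn (-0.97) and Fbln5 (-0.75). Genes of the IGF system were Igf2 (-0.98) and Igfbp2 (-0.96). Genes whose early rise was smaller at day 8 were Akr1c18 (-2.59), Sostdc1 (-1.38), Fam110c (-1.02), Rrm2 (-0.92) and Myc (-0.91). Rgs5 (-2.25) rose at day 4 and was lower with SKO at day 8.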

How the results depend on the processing

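Beside 1275 higher and 1117 lower genes, a spread shared by 12 arrays gave 1881 and 1850, a variance trend 1883 and 1696, the fit with no replicate block 1724 and 1604, and a test against 1.5-fold 266 and 145. Leaving out a pair gave 786 to 996 higher and 590 to 972 lower genes. Of the 2392 changed genes, 0 turned sign under any of these, as was fixed in advance. The sign rule holds the sign when a pair is left out, and the other fits alter the error and not the difference. For the difference between days, 301 and 154 genes became 560 and 296 with no replicate block, 609 and 309 with a variance trend, 559 and 289 without dim genes, and 48 to 67 and 23 to 34 with a pair left out. The cause was not tested. Over 204 named genes, 2421 values were recomputed and 2259 kept direction and call. Of 118 that lost the call, 70 came from the 1.5-fold test and 44 from leaving out a pair. The 12 that turned sign were near 0 and not called. With a pair left out, values ran from -0.01 to 0.17 for Ccne1, -0.05 to 0.14 for Col4a2, -0.42 to 0.02 for Esrrb, -0.36 to 0.00 for Kera, -0.03 to 0.27 for Nanog, -0.19 to 0.13 for Pecam1, -0.28 to 0.03 for Thy1, -0.11 to 0.12 for Twist1 and -0.24 to 0.01 for Zfp42. Quantile normalization gave 0.02 for Pecam1. Signal near the lower quartile limits the size of the rises of genes that were low without SKO.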

Other observations

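Further lists had more members that fell than rose in the main fit, mostly by small counts. Over all genes 6.39% rose, 5.60% fell and 11123 of 19938 lay below 0. Of 24 cholesterol and fatty acid synthesis genes 0 rose and 2 fell, with a median of -0.31 and 18 below 0. When 12 arrays shared the spread, 1 rose and 10 fell. Of 22 adipocyte genes 2 rose and 4 fell (-0.22), of 23 cartilage and bone genes 1 rose and 7 fell (-0.25), of 16 complement and acute-phase genes 2 rose and 4 fell (-0.02), and of 19 CCN family and Yap target genes 3 rose and 4 fell (-0.15). For cartilage and bone genes the difference between days was called as more negative for 7 of 23, and the median was -0.66 at day 8. With a spread shared by 12 arrays 4 adipocyte genes rose. Leaving out the blank virus pair, the cholesterol genes that fell became 0 and the adipocyte genes that fell 0. Leaving out the cluster B pair they became 3 and 2, and leaving out the cluster C pair 0 and 1. The adipocyte genes that rose stayed at 2 with any pair left out, so the excess of falls did not hold for that list. The complement genes that fell were 2 without the blank virus or cluster C pair, where 1 and 2 rose.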
